A study of Homo sapiens with 12 samples.

Results

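The response to IL-1β is described here on 4 of the 12 one-color oligonucleotide microarrays of the series, the control and the IL-1β arrays titled HK2 01 and RPTEC 02. The cells are human proximal tubular cell lines, HK-2, immortalized with papillomavirus genes, and RPTEC/TERT1, immortalized with telomerase. All cultures were grown to confluence, starved of serum and supplements for 24 h and given fresh medium, and then received no ligand (control) or IL-1β at 10 ng/mL for 24 h, after which total RNA was isolated. A further array of each slide, with RNA of cells given empagliflozin at 500 nM, entered the estimate of the spread but not the comparison. Each slide held 1 control and 1 IL-1β array, so both groups have n = 2, and these arrays were compared within their slide. The slides were scanned on different days, and each scan held both groups, so that the value of each slide is also the value within its scan. Nothing in the labels states whether the 2 slides hold separate cultures.

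The 2 slides were chosen by the likeness of their measured log2 signals over all probes, not by a shared line label. Across 15324 probes well above background on all 12 arrays, Pearson's r between their controls was 0.984 and between their IL-1β arrays 0.984, whereas the controls labeled HK2 correlated with 0.880 and those labeled RPTEC with 0.875. The empagliflozin arrays, which are outside the IL-1β comparison, gave the same order, with 0.960 between these slides and 0.852 and 0.862 within a label. These are correlations across probes, which are no independent replicates, and probes on one array share its RNA and labeling. The source field gives HK-2 as the cells of every array. No cell line is therefore assigned to either slide, and each is called by its title. Since the slides were chosen for likeness, the spread between them is small by choice, and all p-values measure only the spread between arrays, which may be technical.

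IL-1β binds the receptor IL1R1, which pairs with the accessory chain IL1RAP and signals through MYD88 and IRAK kinases to the transcription factor NF-κB and to MAP kinases. NF-κB subunits wait in the cytoplasm bound to IκB proteins such as NFKBIA and enter the nucleus once these are degraded. Several of the genes that NF-κB switches on, NFKBIA and TNFAIP3 among them, encode proteins that shut the pathway down again. In tubular epithelium the pathway is known for chemokines that attract leukocytes and for secreted antimicrobial proteins such as lipocalin 2 (LCN2).

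The values are background-subtracted signals, scaled so that the 75th percentile of every array is the same (388.2 signal units, a common level), and fold changes are given as log2 of IL-1β over control. Pairs of signals are given in the order HK2 01, RPTEC 02. Across the 4 arrays between 52.7% and 58.2% of the probes were well above background, and the number of saturated probes was 58 and 28 on the controls and 89 and 87 with IL-1β. The arrays carried transcripts of epithelium (EPCAM, CDH1, KRT8 and KRT18 on all 4 arrays). Of these, EPCAM (-1.18, adjusted p = 0.00416) and CDH1 (-3.62, adjusted p = 0.00024) fell, and KRT8 and KRT18 did not pass the test. Their summed signal was 32826 and 33906 in the controls and 22364 and 25289 with IL-1β. By contrast, 5 of 6 endothelial and all 6 collecting duct markers were not well above background on any of the 4 arrays. Of 13 proximal tubule markers 9 were well above background on all 4, and CUBN, SLC22A6 and HNF4A on none. Of 5 markers of the thick limb and distal tubule without outlier spots, 3 were well above background on none of the 4 arrays and KCNJ1 on 3. KCNJ1 went from 690 and 545 to 11.1 and 22.5 (-5.28, adjusted p = 0.00103). Only SLC12A1, which encodes the sodium-potassium-chloride cotransporter of the thick ascending limb, was measured on all 4. Of 4 podocyte markers 3 reached a level over background on each of the 4 arrays, and none passed the test. Such a level was also reached by 3 of 8 markers of fibroblasts and mesangium, of which ACTA2 (-1.92, adjusted p = 0.00415) and COL1A1 (-0.93, adjusted p = 0.0343) fell. COL1A1 lost its call without the slide block (adjusted p = 0.063), with quantile normalization (0.0548) and in the table of the authors (-0.18, adjusted p = 0.356). DCN of the same list, not well above background in either control, rose at least 2.89-fold. The summed signal of that list was 773 to 850.0 in the controls and 406 to 426 with IL-1β. PTPRC and CD68 were the leukocyte markers, of 7, with a level over background on each of the 4 arrays, and the summed signal of the list was 191 to 400.4 in the controls and 637 to 817 with IL-1β, of which CD68, a lysosomal glycoprotein abundant in macrophages, held 117 and 113 and 692 and 523. The part of such cells in the results was not tested. In RNA of a whole culture, fewer cells of a type and less RNA per cell cannot be told apart.

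A gene was tested if a probe of it was well above background on both control or both IL-1β arrays. This lets a gene enter through the group where it was high, which favors a change in that direction. In all, 15072 genes were tested. Of these, 4408 passed an adjusted p of 0.05 (limma with the slide as a block, Benjamini-Hochberg over all genes tested), which is 29.2%. IL-1β raised 1805 genes (12%) and lowered 2603 (17.3%), and these 2 percentages are the background for every count below. The median log2 fold change was 1.27 among the genes raised and -1.18 among those lowered. Rises outnumbered falls among fitted changes of at least 16-fold. Signals at least 2-fold higher were found for 1193 genes (7.92%) and at least 2-fold lower for 1675 (11.1%), numbers that were 544 and 587 in the table of the authors and 741 and 774 with normexp background correction. At least 16-fold, 191 genes were higher and 70 lower, and at least 64-fold, 74 and 8. All these counts by size use the fitted fold change, where a level below background enters as measured or at the floor of 1 signal unit. They therefore include genes whose lower bound is smaller than the stated fold. The median log2 fold change over all genes tested was -0.08 and the median standard error 0.23. Without the HK2 01 control, the RPTEC 02 control, the HK2 01 IL-1β or the RPTEC 02 IL-1β array, 2760, 2564, 2636 and 2816 genes passed.

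**Figure D1:**
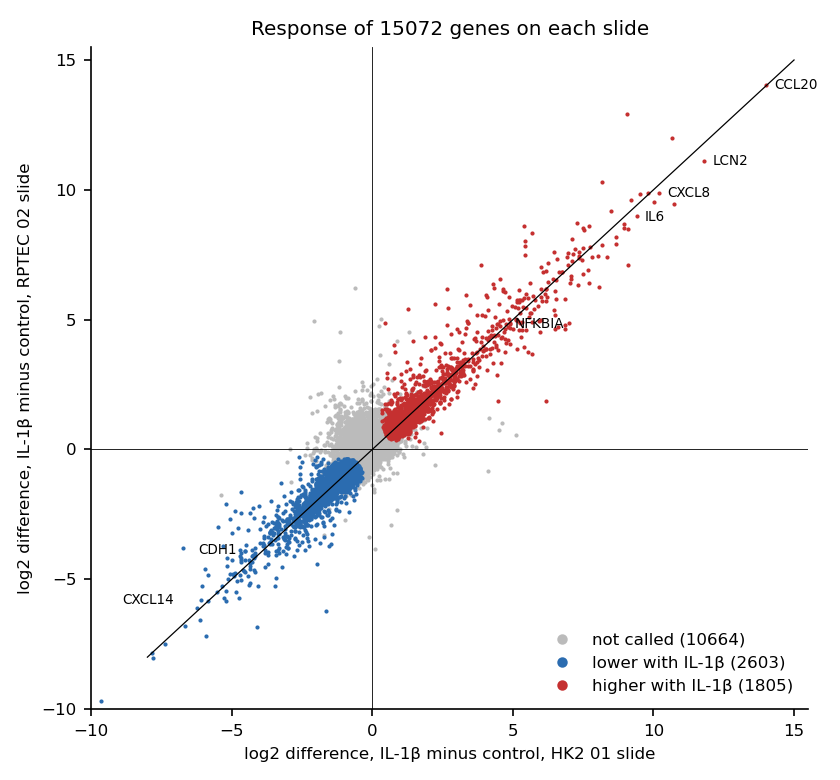
Log2 difference between the IL-1β and the control array of the RPTEC 02 slide (y axis) against that of the HK2 01 slide (x axis) for 15072 genes, with the line of equal differences. Genes called higher are red (1805), called lower blue (2603) and not called gray (10664). The called genes lie along the line of equal differences in 2 opposite quadrants, and CCL20 lies at the top right with a control signal at the floor.

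On both slides the differences had the same sign for all 4408 called genes, which the call itself favors, and for 79.2% of all genes tested. Across genes Pearson's r between the differences of the 2 slides was 0.899, or 0.877 over the 13512 genes measured on all 4 arrays, that is, well above background on each and not saturated on both arrays of a group. This is a description across genes, which share the arrays. Of the called genes 260 were higher without a measured control level on either slide and 223 lower without a measured level with IL-1β. For these only bounds of the fold change are known, which the counts by size above do not use.

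Among genes measured without saturation on all 4 arrays, PI3, IL6 and CXCL2 rose most. PI3, which encodes the elastase inhibitor elafin, had 63.1 and 34.2 signal units in the controls and 46939 and 31474 with IL-1β, a log2 fold change of 9.69 (standard error 0.30, adjusted p = 6.35e-07). IL6, the inducer of the hepatic acute-phase response, went from 48.7 and 52.6 to 32959.7 and 26486 (9.19, standard error 0.26, adjusted p = 4.30e-07). The neutrophil chemokine CXCL2 went from 139 and 195 to 56630.4 and 47074 (8.29). For each of these genes both IL-1β signals were over 100 times the higher control signal. The others of the 10 largest rises were IL4I1 (7.62), an amino acid oxidase, the defensin DEFB4A (7.62), TNF (7.18), the serum amyloid SAA1 (7.17), complement C3 (7.05), the antichymotrypsin SERPINA3 (7.03) and lymphotoxin β (LTB, 6.89).

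**Figure D2:**
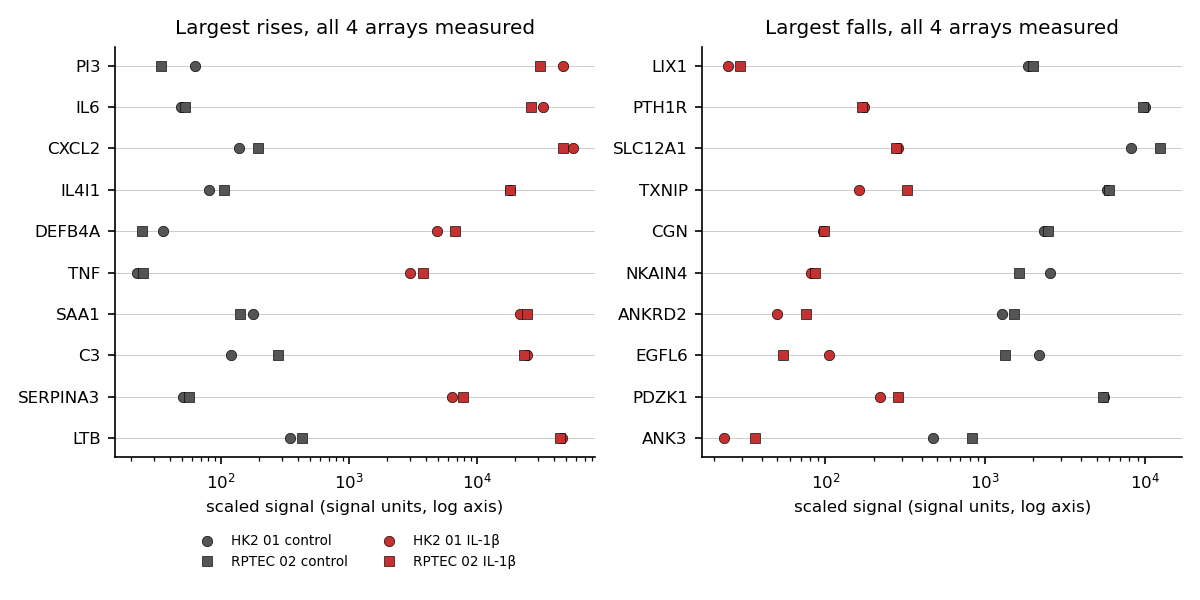
Scaled signal (signal units, log axis) of the 10 genes with the largest rise (left) and the 10 with the largest fall (right) among genes measured without saturation on all 4 arrays. Circles are the HK2 01 slide, squares the RPTEC 02 slide, gray the control and red the IL-1β array, and in each gene the 2 gray and the 2 red points lie apart without overlap, as the choice of these genes requires.

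Other genes rose from below background, and their folds are given as lower bounds, with the control set to the lowest signal that counted as well above background on its array where its own was lower. CCL20, a chemokine for dendritic cells and lymphocytes, was at the floor of 1 signal unit in both controls and at 16549 and 16928 with IL-1β, at least 2234-fold higher (adjusted p = 2.40e-07). LCN2 had 14215 and 10167 signal units with IL-1β and was at least 1605-fold higher. The colony-stimulating factor CSF2 reached 7448 and 7678, at least 718-fold higher, and the pentraxin PTX3 3605 and 2945, at least 431-fold. In these 4 genes both IL-1β arrays were well above background and neither control was. The same held for the drug-metabolizing enzymes CYP3A5 (at least 419-fold) and CYP3A7 (at least 259-fold), whose transcripts are similar enough that their probes may share signal, the C-type lectin CLEC4E (at least 224-fold), the cytokine subunit EBI3 (at least 198-fold) and the lipid transporter ABCA12 (at least 146-fold).

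Of 21 genes of IL-1 receptor signaling tested, 7 rose and 3 fell. IL1R1 went from 49.4 and 89.2 to 155 and 199.9 (1.41, adjusted p = 0.00562) and IL1RAP from 29.6 and 25.8 to 102 and 93.5 (1.82). The kinase IRAK2, which sustains signaling from the receptor complex, rose from 96.8 and 117 to 3922 and 3534 (5.13, standard error 0.23, adjusted p = 3.56e-06). Its inhibitory relative IRAK3 rose at least 3.77-fold from below background to 39.2 and 20.3. The adaptor MYD88 had 532 and 365 signal units in the controls and 419 and 338 with IL-1β and did not pass the test (-0.23, adjusted p = 0.683). The decoy receptor IL1R2 was at least 3.06-fold lower, and the inhibitory receptor SIGIRR fell by 1.07 on the log2 scale. Of the ligands of the family, IL1B reached 162 and 174 (at least 22.4-fold), IL1A 58.8 and 46.2 (at least 6.96-fold) and IL36G 157 and 84.7 (at least 15.4-fold) from below background, and IL18 fell from 337 and 286 to 131 and 111.

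NF-κB subunits, inhibitors and feedback proteins rose together. Of 25 tested, 18 rose, 0 fell and 7 did not pass (median log2 fold change 1.39, against -0.08 over all genes). The subunit gene NFKB1 went from 423 and 381 to 3881 and 3117 (3.12), NFKB2 from 71.4 and 50.8 to 654 and 393 (3.07) and RELB from 822 and 921 to 10767 and 9530.3 (3.54). RELA had 314 and 298 in the controls and 621 and 481 with IL-1β and did not pass (0.84, adjusted p = 0.124). The inhibitor NFKBIA rose from 1168 and 1215 to 31648 and 34725 (4.80, adjusted p = 6.72e-06), and the nuclear IκB protein NFKBIZ from 189.7 and 138 to 2442 and 1814 (3.70). BIRC3, a ubiquitin ligase of the TNF receptor complex, went from 103 and 148 to 7742 and 8569 (6.04), its partner TRAF1 rose at least 35.5-fold, and ZC3H12A, an RNase that degrades cytokine transcripts, went from 205 and 170.2 to 8394 and 7565 (5.41). TNFAIP3 was not among the genes tested because the software marked its spot on 1 array as an outlier. With outlier spots kept, it had 27.2 and 29.5 signal units in the controls and 3227 and 2091 with IL-1β (6.52, adjusted p = 3.31e-06).

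The promoters of some of these genes carry letters of the kind that NF-κB binds, and 6 of the 14 named genes with such letters and a rise of at least 16-fold are shown as examples, picked after their values were seen: 2 chemokines, a secreted antimicrobial protein, a cytokine and 2 regulators of the pathway. The letters GGG, any 3 bases and then TTCC were searched on both strands in the 250 bases before the most upstream start of each gene (RefSeq, GRCh38.p14), where a match on the opposite strand reads GGAA, any 3 bases, CCC. A match was found in 6.67% of 10607 tested genes with a promoter, and in 5.65% of 27305 promoters in all. The share was 8.64% of 1296 called higher, 5.61% of 1924 called lower and 15.6% of 128 with a fitted rise of at least 16-fold. No match shown overlaps a match to TGANTCA (AP-1 type), to TTTC, any 2 bases, TTTC (interferon type) or to TCAC, any base, CCAC (sterol type). In the sequences below, 5′ to 3′ and ending at the base before the start, capitals mark the match.
CCL20 (chr2:227813592-227813841, plus strand): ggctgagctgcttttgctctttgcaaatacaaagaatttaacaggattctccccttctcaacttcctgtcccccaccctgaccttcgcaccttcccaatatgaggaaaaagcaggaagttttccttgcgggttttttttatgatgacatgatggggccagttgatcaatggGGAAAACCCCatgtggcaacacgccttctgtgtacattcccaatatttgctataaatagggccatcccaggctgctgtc
LCN2 (chr9:128149203-128149452, plus strand): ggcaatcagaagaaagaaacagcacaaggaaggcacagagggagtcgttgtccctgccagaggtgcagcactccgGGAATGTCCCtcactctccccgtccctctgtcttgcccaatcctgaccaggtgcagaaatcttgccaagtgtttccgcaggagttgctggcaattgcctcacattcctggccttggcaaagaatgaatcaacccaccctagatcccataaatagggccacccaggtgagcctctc
IL6 (chr7:22726950-22727199, plus strand): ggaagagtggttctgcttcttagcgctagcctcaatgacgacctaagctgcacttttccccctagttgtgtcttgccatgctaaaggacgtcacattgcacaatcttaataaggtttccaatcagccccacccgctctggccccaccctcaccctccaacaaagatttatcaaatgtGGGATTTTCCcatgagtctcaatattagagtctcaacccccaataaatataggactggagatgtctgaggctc
CXCL2 (chr4:74099196-74099445, minus strand): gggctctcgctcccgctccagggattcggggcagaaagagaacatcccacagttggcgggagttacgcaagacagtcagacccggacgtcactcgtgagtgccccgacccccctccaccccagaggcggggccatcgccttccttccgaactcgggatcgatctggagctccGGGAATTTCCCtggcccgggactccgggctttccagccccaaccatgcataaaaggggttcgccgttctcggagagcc
NFKBIA (chr14:35404750-35404999, minus strand): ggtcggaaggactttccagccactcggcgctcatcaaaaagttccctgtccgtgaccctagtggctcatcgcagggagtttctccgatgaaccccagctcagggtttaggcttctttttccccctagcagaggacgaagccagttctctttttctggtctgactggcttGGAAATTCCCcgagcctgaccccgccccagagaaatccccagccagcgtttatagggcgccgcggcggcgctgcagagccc
BIRC3 (chr11:102317234-102317483, plus strand): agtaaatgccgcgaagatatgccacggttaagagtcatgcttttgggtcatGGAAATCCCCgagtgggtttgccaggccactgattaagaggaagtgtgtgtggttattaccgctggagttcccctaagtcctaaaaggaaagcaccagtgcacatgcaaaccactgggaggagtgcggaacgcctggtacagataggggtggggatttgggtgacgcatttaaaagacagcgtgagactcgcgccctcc

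Each of the 6 windows holds 1 stretch in capitals, in CXCL2 from both strands at once. A match is a description of the letters and shows no binding. For TGANTCA, letters of the AP-1 kind, the shares were 4.2% of the tested genes with a promoter and 4.71% of those called higher. They were 4.21% of those called lower and 10.2% of those at least 16-fold higher. In the same order the shares were 2.46%, 3.63%, 2.03% and 5.47% for the interferon type. For the sterol type they were 0.867%, 0.617%, 0.468% and 0%.

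Chemokines had the highest median of the 26 lists. Of 16 tested, 14 rose and 1 fell (median log2 fold change 5.22), and 4 of the 16 were well above background on all 4 arrays without being saturated on both arrays of a group. Members low in the controls were tested only because both IL-1β arrays were bright, so that a rise was built into their entry. The median and its rank include such members, and 8 of the 25 on the array were below the filter. CXCL8, the main neutrophil attractant of human cells, had 21.3 and 24.6 signal units in the controls, of which 1 array was well above background, and 25152 and 23342 with IL-1β (10.05, adjusted p = 2.87e-07). CXCL6 went from 21.9 and 6.74 to 35328 and 27457 (11.32), again with 1 of 2 controls measured. CXCL1 started higher, at 2273 and 2033, and was saturated on both IL-1β arrays, so its rise was at least 28.4-fold. CCL2, which encodes MCP-1, an attractant of monocytes, was at 375 and 356 in the controls and also saturated with IL-1β, at least 178-fold higher. CCL5 rose at least 97.4-fold from the floor to 674 and 789, and the membrane-bound chemokine CX3CL1 from 96.7 and 104 to 622 and 630.2 (2.64). The one chemokine that fell was CXCL14, which epithelia express without stimulation, from 73822 and 78529 to 1086 and 1399 (adjusted p = 1.76e-06), at least 61.8-fold lower, since both controls were saturated. CXCL3 had outlier spots. With outlier spots kept it went from 23.3 and 16.8 to 11236 and 10382 (9.09). CXCL1, CXCL2 and CXCL3 are similar in sequence, and their probes may share signal. The interferon-type chemokines CXCL9, CXCL10 and CXCL11 did not reach both arrays of either group and were not tested.

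Of 25 cytokines and growth factors tested, 15 rose and 3 fell (median 1.85, and 0.77 in the table of the authors). TNF went from 22.2 and 24.8 to 3023 and 3814 (7.18, standard error 0.20) and LTB, which directs lymphoid tissue, from 347 and 436 to 46879.6 and 45173 (6.89, standard error 0.20). The granulocyte factor CSF3 rose at least 122-fold to 886 and 947, the macrophage factor CSF1 from 115 and 84.2 to 486 and 525 (2.36) and the IL-6 family member LIF from 649 and 468 to 2135 and 1852 (1.85). IL32 rose from 169.8 and 190.4 to 9205 and 8034 (5.58). EDN1, which encodes the vasoconstrictor endothelin-1, rose by under 2-fold, from 1082 and 974 to 1650.5 and 2321 (0.93, adjusted p = 0.0191). IL7 was at least 14.9-fold lower, and PDGFB fell from 274 and 185 to 52.3 and 52.7 (-2.10).

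Of 25 acute-phase, antimicrobial and complement genes tested, 20 rose and 2 fell (median 3.63). C3, on which all complement pathways converge, went from 119.6 and 279 to 24822 and 23526 (7.05, adjusted p = 5.20e-05), and its activating partner CFB rose at least 21.8-fold to 306 and 232. SAA1 went from 179.7 and 142 to 21705 and 24568 (7.17), and SAA2, whose transcript is nearly the same, rose at least 71.6-fold. SERPINA3 went from 51.3 and 57.0 to 6409 and 7794 (7.03). The receptor TLR2 rose by 0.77 on the log2 scale. The 2 genes that fell were CFI, an inhibitor of C3b, from 2260.5 and 2366 to 873 and 899 (-1.38), and TLR3, the receptor for double-stranded RNA, from 254 and 311 to 82.7 and 138 (-1.39).

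Of 10 leukocyte adhesion genes tested 4 were higher (40%) and 2 lower. The share lower, 20%, lies near the 17.3% over all genes. ICAM1, the ligand of leukocyte β2 integrins, went from 153 and 172 to 2119.9 and 1864 (3.61, adjusted p = 7.93e-06), and the ligand CD274 (PD-L1) rose at least 4.52-fold. CD47, a signal against phagocytosis, rose by 1.51 on the log2 scale. VCAM1 did not reach both arrays of either group. CD44 had an outlier spot and, with such spots kept, went from 10213 and 12771 to 43022 and 46652 (1.97, adjusted p = 0.000383). ICAM3 (-0.70) and ICAM5 (-0.80) fell.

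Of 16 enzymes of prostaglandin, nitric oxide and oxidant handling, 7 rose and 1 fell, and 4 were called higher in the table of the authors. The mitochondrial superoxide dismutase SOD2 was at 918 and 1059.7 in the controls and saturated with IL-1β, at least 61.6-fold higher (adjusted p = 7.29e-07). PTGS2, the inducible cyclooxygenase, rose from the floor to 31.8 and 25.0 (at least 3.76-fold) and the inducible nitric oxide synthase NOS2 to 36.5 and 31.2 (at least 4.51-fold), which are low signals. HPGD, which inactivates prostaglandins, fell from 313 and 271 to 21.4 and 39.4 (-3.33, adjusted p = 0.000391).

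Of 12 proteases and inhibitors 8 rose and 0 fell (median 1.35). The collagenase MMP1 rose at least 37.3-fold to 344 and 227, the tissue plasminogen activator PLAT at least 15.3-fold, and the urokinase receptor PLAUR from 29.2 and 31.4 to 442 and 386 (3.77). PLAU, urokinase itself, was at 31021 and 27295 in the controls and saturated with IL-1β, at least 2.16-fold higher. The metalloproteinase inhibitor TIMP1 rose from 1585 and 1802 to 3331 and 3921 (1.10). MMP7, an injury marker of the tubule, had an outlier spot on an array of the other slides. With outlier spots kept it went from 6166 and 6232 to 72127 and 74215, where both IL-1β arrays were saturated, so the size of its rise is not known.

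**Figure D3:**
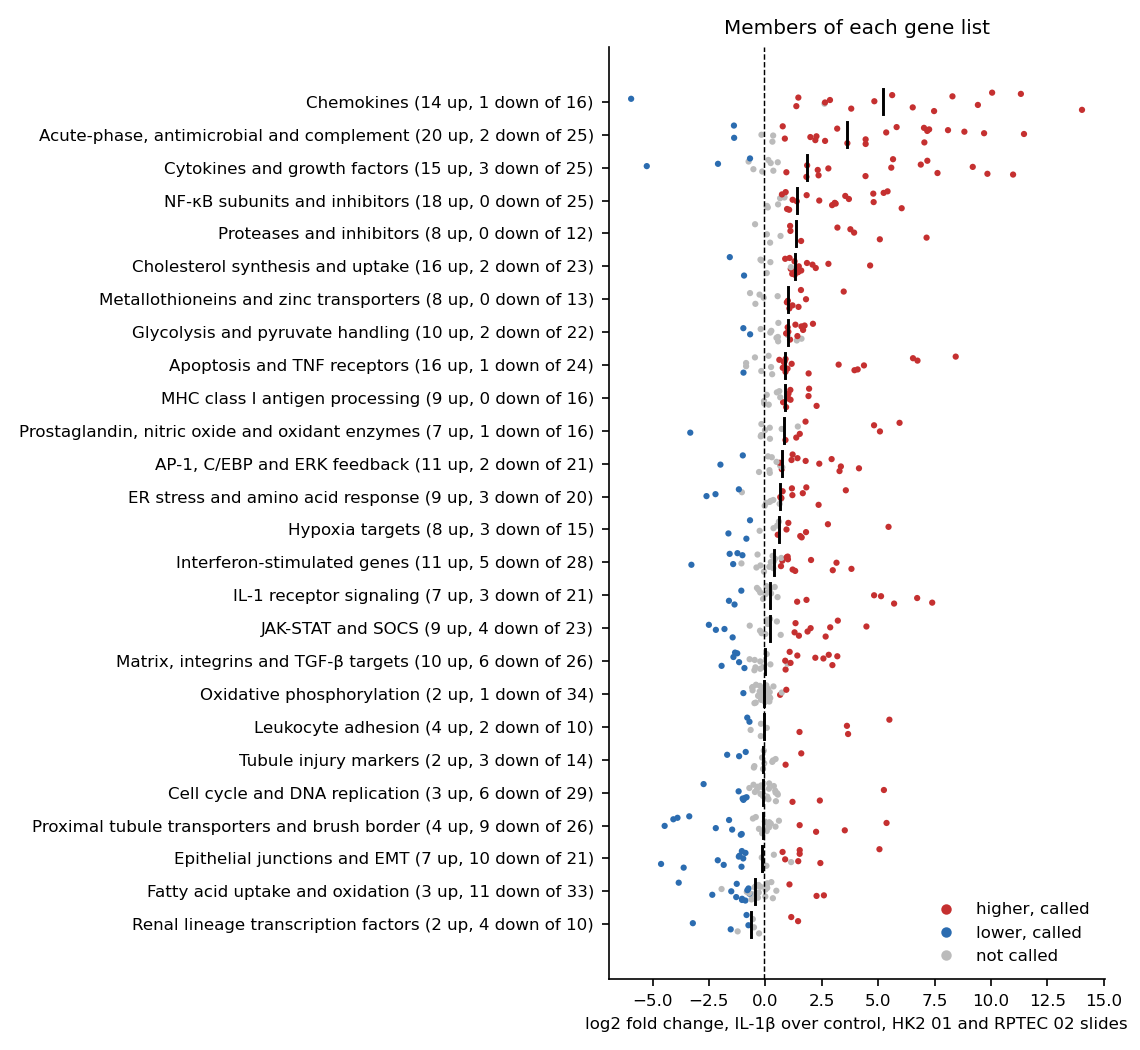
Log2 fold change of IL-1β over control (x axis) for every tested member of 26 gene lists (rows, ordered by their median), with the number called higher and lower of those tested. Red points are called higher, blue lower and gray not called, black bars are medians, and the dashed line is the median of all 15072 genes (-0.08). Chemokines have the highest median (5.22) and renal lineage transcription factors the lowest (-0.65).

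Of 23 genes of cytokine receptors and STAT signaling 9 were higher (39.1%) and 4 lower. The share lower, 17.4%, lies near the 17.3% over all genes. The kinase PIM2 rose from 133 and 169.6 to 3271 and 3432 (4.48, adjusted p = 1.34e-06), PIM1 by 2.87 and the interferon-γ receptor IFNGR1 by 2.67. SOCS2, an inhibitor of cytokine receptors, fell from 366 and 266 to 60.7 and 49.8 (-2.50) as did its relative CISH (-1.45), the receptor chain LIFR (-1.81) and JAK3 (-2.19).

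Of 28 interferon-stimulated genes 11 were higher (39.3%) and 5 lower (median 0.36). The share lower, 17.9%, lies near the 17.3% over all genes. In the table of the authors 7 were called higher and 3 lower (median 0.15), and leaving out the HK2 01 control, the RPTEC 02 control, the HK2 01 IL-1β or the RPTEC 02 IL-1β array left 7, 7, 6 and 7 higher and 3, 4, 3 and 2 lower. The transcription factor IRF1 rose from 39.3 and 27.3 to 273 and 310.3 (3.15), the guanylate-binding protein GBP2 from 166 and 193 to 1252 and 1606 (2.99) and IFI27 from 40.8 and 39.9 to 667 and 483 (3.81). The members that fell were led by IFIT1, an RNA sensor of the antiviral response, from 1623 and 2298 to 253 and 157 (-3.28, standard error 0.28, adjusted p = 0.000101), with IFIT2 (-1.43) and RSAD2 (-1.58). ISG15 (0.75) and MX1 (1.00) rose. Of 16 genes that process or present MHC class I peptides 9 rose and 0 fell (median 0.85), among them the immunoproteasome subunit PSMB10 (1.91), the loading protein TAPBP (1.94), the peptidase ERAP1 (2.27), HLA-B (0.79) and HLA-E (1.12). HLA genes are alike in sequence, and their probes may share signal. Without the HK2 01 control, the RPTEC 02 control, the HK2 01 IL-1β or the RPTEC 02 IL-1β array, 4, 5, 6 and 6 of these 16 were called higher. The peptide transporter TAP1 did not pass (0.62, adjusted p = 0.065).

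Of 21 AP-1, C/EBP and ERK feedback genes 11 rose and 2 fell (median 0.73), and 8, 6, 7 and 9 were called higher without the HK2 01 control, the RPTEC 02 control, the HK2 01 IL-1β or the RPTEC 02 IL-1β array. CEBPB, a partner of NF-κB at acute-phase promoters, went from 722 and 642 to 6889.7 and 6405 (3.29, adjusted p = 1.25e-05), and the MAP kinase phosphatases DUSP5 and DUSP10 rose by 3.35 and 4.15. The immediate early gene EGR1 fell (-1.99), and so did the ERK inhibitor SPRY2.

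Of 24 genes of apoptosis and the TNF receptor family 16 rose and 1 fell (median 0.87). Osteoprotegerin, encoded by TNFRSF11B, went from 91.5 and 90.9 to 9215 and 10325 (6.74, adjusted p = 3.57e-05) and the receptor CD40 from 90.8 and 79.8 to 1817 and 1701 (4.37). TNFRSF9 rose at least 46.2-fold and the TNF receptor TNFRSF1B at least 12.4-fold. The death receptor FAS rose by 1.16, and the survival gene BCL2A1 by 0.89, whereas BCL2 fell (-0.97). Between 10 and 11 of the 24 were called higher when any 1 of the 4 arrays was left out.

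Among genes measured without saturation on all 4 arrays, LIX1, PTH1R and SLC12A1 fell most. LIX1 went from 1863 and 2002 to 24.7 and 29.3 (-6.17, standard error 0.42, adjusted p = 2.86e-05). PTH1R, the receptor for parathyroid hormone, which acts on the tubule, went from 9957 and 9689 to 173 and 169.5 (-5.84, standard error 0.20). SLC12A1 went from 8185 and 12462 to 286 and 278 (-5.16, standard error 0.20). In all 3 genes both IL-1β signals lay far below both controls. They were followed by TXNIP, an inhibitor of thioredoxin and of glucose uptake (-4.67), the tight junction protein cingulin (CGN, -4.62), NKAIN4 (-4.62), ANKRD2 (-4.50), EGFL6 (-4.48), the brush border scaffold PDZK1 (-4.46) and ankyrin 3 (ANK3, -4.43). Of the genes that fell below background on both IL-1β arrays, BBOX1, the last enzyme of carnitine synthesis, had 2102 and 1513 signal units in the controls and was at least 231-fold lower. The acid phosphatase ACP3 was at least 138-fold lower and the semaphorin SEMA5B at least 87.3-fold.

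Of 26 tested members of the proximal tubule and brush border list, 9 fell and 4 rose, and 22 of the 48 listed were below the filter. PDZK1, which anchors apical transporters, went from 5549 and 5481 to 219 and 286 (adjusted p = 1.88e-05) and SLC3A1, the heavy chain of the cystine transporter, from 17582 and 17140.1 to 967 and 1092 (-4.08). The bicarbonate cotransporter SLC4A4 went from 2313 and 1904 to 166 and 120.2 (-3.89), and megalin (LRP2), which takes up filtered proteins, from 160.2 and 148 to 30.9 and 36.5 (-2.20). SLC5A2, which encodes SGLT2, the target of empagliflozin, was at 53.9 and 77.9 in the controls and 38.2 and 61.0 with IL-1β and did not pass (-0.42, adjusted p = 0.251). The carnitine and ergothioneine transporter SLC22A4 rose from 16.5 and 6.26 to 412 and 429 (5.37, 1 control measured), the peptidase ANPEP rose by 2.25 and the carbonic anhydrase CA2 by 3.52.

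Of 10 renal lineage transcription factors 4 fell and 2 rose, with 2, 2, 2 and 3 called lower without the HK2 01 control, the RPTEC 02 control, the HK2 01 IL-1β or the RPTEC 02 IL-1β array. LHX1, which acts in early nephron formation, went from 1213 and 1298 to 113 and 162 (-3.21, adjusted p = 9.48e-05), and FOXC1 fell by 1.54 on the log2 scale. PAX8 rose from 2747 and 2581 to 6343 and 5481 (1.15), and the bile acid receptor NR1H4 from 631 and 620.3 to 1902 and 1536 (1.45).

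Epithelial junction genes changed in both directions, 10 of 21 lower and 7 higher. With 1 array left out, in the order HK2 01 control, RPTEC 02 control, HK2 01 IL-1β and RPTEC 02 IL-1β, 7, 7, 4 and 8 were called lower and 4, 6, 6 and 4 higher. E-cadherin (CDH1), which holds epithelial cells together, went from 2843 and 3086 to 277 and 209.6 (-3.62, standard error 0.37, adjusted p = 0.00024), and CGN from 2326 and 2469.8 to 97.1 and 97.6. CLDN16, a claudin of the thick limb, fell by 2.11. CDH6 was at least 3.60-fold lower. CLDN1 rose from 602 and 548 to 3614 and 2675 (2.44), and the repressors of CDH1 ZEB1 (1.52) and ZEB2 (at least 7.48-fold) rose. P-cadherin (CDH3) had outlier spots and, with such spots kept, went from 6826 and 6772 to 402 and 357 (-4.17).

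Of 26 matrix, integrin and TGF-β target genes 10 rose and 6 fell, with 6 called higher without the RPTEC 02 control and 4 lower without the HK2 01 control or the HK2 01 IL-1β array. The laminin chain LAMB3, of the basement membrane, rose from 2899 and 2637 to 25324 and 25092 (3.19), as did the anchoring collagen COL7A1 (2.97) and the integrin ITGB8 (2.57). COL6A1 (-1.94), LAMB1 (-1.42), THBS1 (-1.34) and the TGF-β inhibitor SMAD7 (-1.25) fell. Of 14 tubule injury markers 2 rose (14.3%) and 3 fell (21.4%), which lies near the percentages over all genes. Osteopontin (SPP1) went from 23649 and 18447 to 61344 and 64505, where 1 array was saturated (1.59), and the progenitor marker PROM1 fell (-1.16). HAVCR1, which encodes KIM-1, was near background, with 23.8 and 8.08 signal units in the controls and 12.9 and 22.8 with IL-1β, and did not pass (adjusted p = 0.764). Without the HK2 01 IL-1β array it was called higher (1.73, adjusted p = 0.0148).

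Cholesterol synthesis stood out among metabolic lists. Of 23 genes tested 16 rose and 2 fell (median 1.29). INSIG1, which retains the sterol sensor in the endoplasmic reticulum, went from 650.0 and 725 to 14367 and 20459 (4.64, standard error 0.47, adjusted p = 0.000247). The synthase HMGCS1 went from 404 and 381 to 1731 and 1964 (2.23) and lanosterol synthase (LSS) from 2174 and 2182 to 9272 and 9253 (2.09). The reductase TM7SF2 (-1.58) and the cholesterol exporter ABCA1 (-0.94, adjusted p = 0.0158) fell, the latter not without the RPTEC 02 control or the HK2 01 IL-1β array (adjusted p = 0.147 and 0.138).

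Of 33 genes of fatty acid uptake and oxidation 11 fell and 3 rose (median -0.48). SLC27A2, a fatty acid transporter and acyl-CoA synthetase, went from 185 and 183 to below background (at least 14.3-fold lower, adjusted p = 8.11e-06). ACSL1 fell from 3991 and 2549 to 1705 and 996 (-1.29) and the peroxisomal enzyme EHHADH by 1.51 on the log2 scale, with 1 of 2 IL-1β arrays well above background. CPT1A, the gate of mitochondrial import, did not pass (-0.57, adjusted p = 0.14). The 3 that rose were the acyl-CoA synthetases ACSL4 (2.27) and ACSL5 (2.59), which load fatty acids also for storage and signaling, and the nuclear receptor PPARG (1.07). The share that rose, 9.09%, lies near the 12% over all genes. With the HK2 01 control, the RPTEC 02 control, the HK2 01 IL-1β or the RPTEC 02 IL-1β array left out, 5, 4, 5 and 6 of the 33 were called lower. Of 34 subunits of oxidative phosphorylation 2 rose and 1 fell, but 8 were called lower in the table of the authors and 5 with another background correction.

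**Figure D4:**
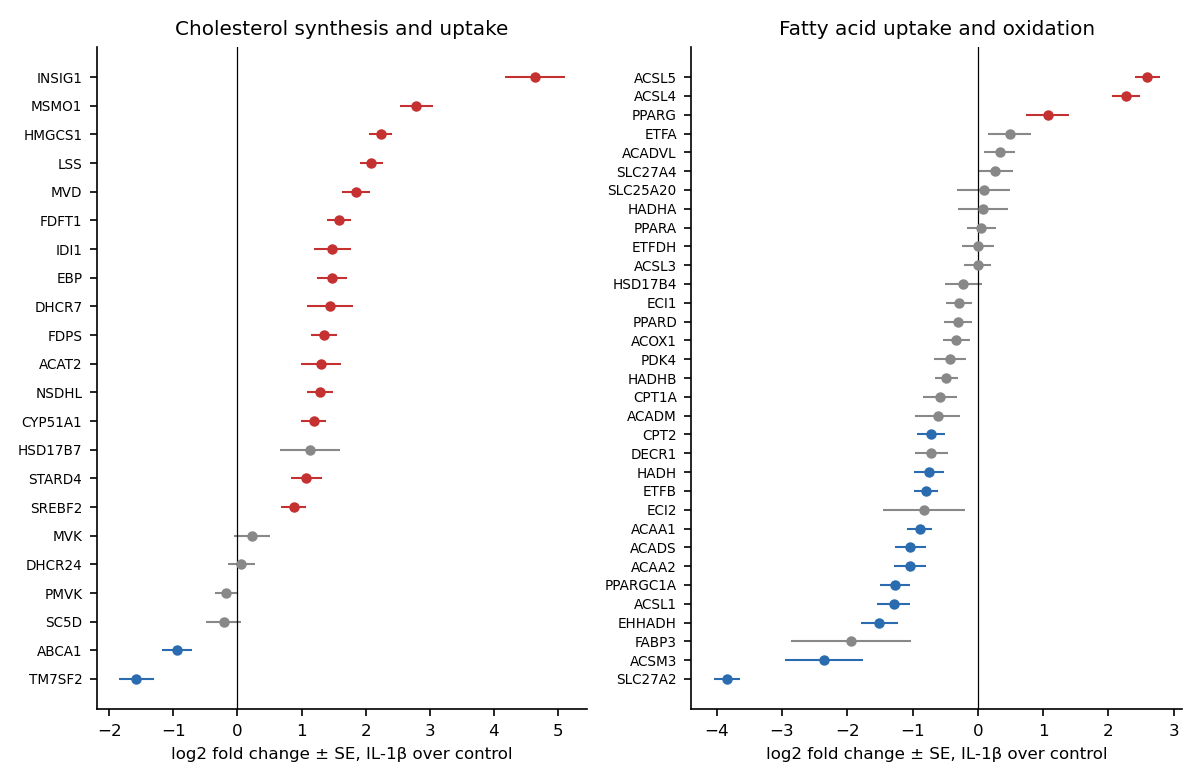
Log2 fold change of IL-1β over control with its standard error (x axis) for tested genes of cholesterol synthesis and uptake (left, 1 of the 23 not drawn) and of fatty acid uptake and oxidation (right, 33 genes). Red is called higher, blue lower and gray not called. Most cholesterol genes lie right of 0, INSIG1 farthest, and most fatty acid genes left of 0, SLC27A2 farthest.

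Of 22 glycolysis genes 10 rose and 2 fell (median 0.99), and 7, 6, 7 and 6 were called higher without the HK2 01 control, the RPTEC 02 control, the HK2 01 IL-1β or the RPTEC 02 IL-1β array. The lactate exporter SLC16A3 went from 5866 and 6393 to 23618 and 29528 (2.11, adjusted p = 0.000159) and PGK1 from 5456 and 5751 to 18587 and 18797 (1.74), and PFKM fell (-0.98). The hypoxia targets divided as 8 of 15 higher and 3 lower (6, 5, 6 and 5 higher with those arrays left out in the same order), with the prolyl hydroxylase P4HA2 (2.77) and the collagen cross-linker LOX (5.46, 1 control measured) at the top and DDIT4 (-1.64) and ADM (-0.84) among those that fell. The share of hypoxia targets that fell, 20%, lies near the 17.3% over all genes. HIF1A rose from 1925 and 1936 to 3654 and 3736 (0.94).

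Of 13 metallothioneins and zinc transporters 8 rose and 0 fell, and 6, 7, 6 and 5 were called higher without the HK2 01 control, the RPTEC 02 control, the HK2 01 IL-1β or the RPTEC 02 IL-1β array. The zinc importer SLC39A14 went from 1219.6 and 1268 to 15275 and 12460.5 (3.47, adjusted p = 6.33e-06) and SLC39A8 rose by 1.58. The metallothionein MT1X went from 18118 and 14411 to 56432 and 56184, where 1 array was saturated, and the metallothionein probes are so alike that they may share signal. Of 20 genes of the stress responses of the endoplasmic reticulum and of amino acid shortage 9 rose and 3 fell, and 5 were called higher without any 1 of those arrays. The share that fell, 15%, lies near the 17.3% over all genes. XBP1 rose from 1682 and 2282 to 5936 and 8004 (1.81) and the cystine importer SLC7A11 by 3.57. The serine synthesis enzymes PHGDH, from 306 and 322 to 55.1 and 48.1 (-2.61), and PSAT1, from 2073 and 2756 to 551 and 484 (-2.21), fell.

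Of 29 cell cycle genes 3 rose and 6 fell, which lies near the percentages over all genes. The ribonucleotide reductase subunit RRM2 was low in the controls (21.9 and 20.3) and at least 3.32-fold lower with IL-1β, the inhibitor CDKN1B fell by 1.19 and CDKN2B rose at least 5.09-fold. MKI67, a marker of cycling cells, had 19.1 and 12.9 signal units in the controls and 19.6 and 21.3 with IL-1β and did not pass (adjusted p = 0.238).

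Of 17 tested symbols of microRNAs or their host transcripts 2 rose and 8 fell, a group formed after the values were seen, and those described were picked from it in the same way, apart from MIR146A. The probe named MIR146A went from 24.2 and 44.1 to 1531 and 1389 (5.48, standard error 0.25, adjusted p = 3.40e-06) and the host transcript MIR155HG from 14.4 and 18.7, with 1 control well above background, to 541 and 448 (4.91, adjusted p = 4.09e-06). The products of both are known for restraining or shaping inflammatory signaling. The host transcript MIR205HG fell from 8244 and 7867 to 357 and 516 (-4.23, adjusted p = 1.27e-05), MIR503HG from 240.1 and 249 to 22.6 and 16.7 (-3.66, adjusted p = 8.90e-06), MIR99AHG from 243 and 291 to 30.5 and 28.1 (-3.18, adjusted p = 0.0181) and MIRLET7BHG from 1022 and 1160.4 to 328 and 413 (-1.57, adjusted p = 0.00293). miR-205 is known to target ZEB1 and ZEB2. The arrays measure these longer transcripts, not the mature microRNAs, of which 1 from each risen gene and those of 4 fallen hosts are shown because the seed decides what they pair with. Capitals mark the seed, bases 2 to 8, in the mature sequences of RefSeq (GRCh38.p14).
miR-146a-5p: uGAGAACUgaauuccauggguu
miR-155-5p: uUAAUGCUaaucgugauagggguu
miR-205-5p: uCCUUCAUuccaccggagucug
miR-503-5p: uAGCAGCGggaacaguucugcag
miR-99a-5p (MIR99AHG): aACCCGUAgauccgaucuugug
let-7c-5p (MIR99AHG): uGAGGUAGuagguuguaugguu
miR-125b-5p (MIR99AHG): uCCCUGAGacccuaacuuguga
let-7b-5p (MIRLET7BHG): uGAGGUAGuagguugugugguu
let-7a-5p (MIRLET7BHG): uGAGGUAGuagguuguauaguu

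The 3 let-7 sequences, which come from 2 of the fallen hosts, share the seed GAGGUAG, and the other 6 have a seed each of their own.

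The response was also set beside that of the slides titled HK2 02 and RPTEC 01, which share no array with the slides above and received the same treatment. There, IL-1β changed 1132 of the same 15072 genes (7.51%), 418 higher and 714 lower. These genes and their probes were chosen by the signals on the HK2 01 and RPTEC 02 arrays alone, which favors calls here. Of the calls, 764 had the same direction in both pairs of slides, which is 17.3% of the calls here and 67.5% of those there. The opposite direction was found for 73. Both pairs were tested with a shared estimate of the spread of each gene, so that calls in both are not independent of each other. Of the 1805 genes raised here, 59.9% were higher on both other slides, against 27.2% of all genes tested, and of the 2603 lowered here 65.4% were lower on both, against 42.1%. The difference between the pairs itself passed the test for 1554 genes (10.3%), 779 with a higher and 775 with a lower log2 fold change here. Of these, 994 were measured on all 8 arrays, 464 higher and 530 lower.

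**Figure D5:**
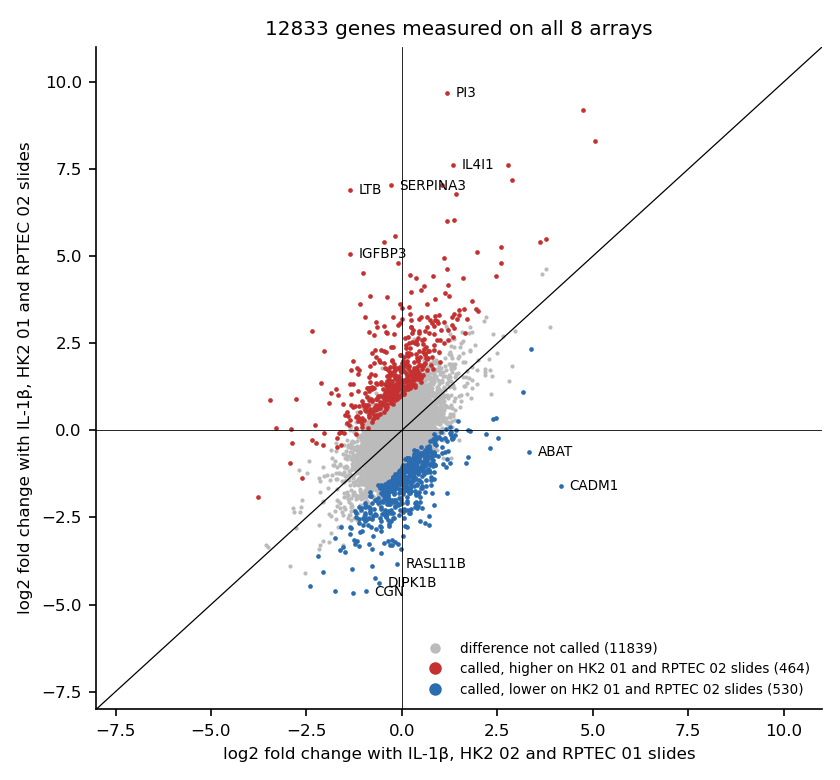
Log2 fold change with IL-1β on the HK2 01 and RPTEC 02 slides (y axis) against that on the HK2 02 and RPTEC 01 slides (x axis) for 12833 genes measured (well above background, and in no group saturated on both arrays) on all 8 control and IL-1β arrays, with the line of equal change. Red and blue mark genes whose difference passed the test (464 higher and 530 lower on the HK2 01 and RPTEC 02 slides), and the 10 labeled genes have the largest differences among them, by choice.

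LTB, which rose here, had 734 and 818 signal units in the other controls (HK2 02, RPTEC 01) and 336 and 274 with IL-1β (log2 fold change -1.35, adjusted p = 0.00668), a difference of 8.24 (standard error 0.28, adjusted p = 7.31e-06). SERPINA3 had 42.1 and 25.4 in the controls and 29.4 and 24.4 with IL-1β there (-0.28, adjusted p = 0.401), a difference of 7.31 (adjusted p = 7.39e-06). IGFBP3, a binding protein of insulin-like growth factors, went from 52.3 and 50.8 to 1810.1 and 1622 here and from 935 and 1743 to 412 and 611 there (difference 6.40, adjusted p = 2.39e-05). The log2 fold changes of PI3 and IL4I1 were higher here by 8.50 and 6.27, and there they were 1.19 (adjusted p = 0.0515) and 1.34 (adjusted p = 0.00588). In the other direction, the adhesion molecule CADM1 went from 2609 and 2789.7 to 897 and 896 here. There it went from 253 and 292 to 5268 and 4535 (difference -5.76, adjusted p = 4.65e-05). ABAT, which breaks down GABA, went from 98.1 and 112 to 60.0 and 78.3 here, which did not pass (-0.61, adjusted p = 0.111). There it went from 27.0 and 25.7 to 368 and 192 (difference -3.95). The log2 fold changes of DIPK1B, RASL11B and CGN were lower here by differences of -3.79, -3.71 and -3.68, and were -0.60, -0.13 and -0.94 there.

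Of the 26 lists the largest shares of differences were those of chemokines, acute-phase genes and cytokines. The gene filter and the choice of probe used only the HK2 01 and RPTEC 02 arrays. Genes bright with IL-1β here thus entered whatever their level on the other slides, which tilts the shares and medians toward a larger response here. The difference passed for 14 of 16 chemokines (median log2 fold change 5.22 here and 0.24 there), for 18 of 25 acute-phase, antimicrobial and complement genes (3.63 and 0.27) and for 17 of 25 cytokines (1.85 and 0.43), against 10.3% over all genes. It passed for 1 of 33 fatty acid genes (-0.48 and -0.35) and 0 of 34 subunits of oxidative phosphorylation. Among genes with large changes in both pairs, NFKBIA had log2 fold changes of 4.80 and 2.60, INSIG1 4.64 and 3.77, MIR146A 5.48 and 3.78, and SOCS2 -2.50 and -2.50. The difference passed for NFKBIA (adjusted p = 0.00687) and MIR146A (0.0205). For INSIG1 and SOCS2 it did not (adjusted p = 0.476 and 0.993), which does not show that the pairs responded alike. SLC12A1 was at the floor of 1 signal unit on all 4 other control and IL-1β arrays.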

How the data were processed

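RNA of each culture was hybridized to a 60-mer one-color oligonucleotide array, and the deposited scanner files hold, per the file headers, the intensity of each spot after background subtraction by Agilent Feature Extraction 9.5.3.1 (hg19 annotation). A deposited table holds log2 values of the same arrays, which the authors, by the name of the table, had quantile-normalized, and it served as an alternative.

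Control spots and spots marked as outliers were left out, intensities were divided by the 75th percentile of the array, given a floor of 1 signal unit and taken to log2, and repeated spots were averaged. The probe used for a gene was well above background on both arrays of a group. Expression was fitted over all 12 arrays with limma 3.58.1 in R 4.3.3, with the slide as a block and an effect of each treatment per pair of slides, at a Benjamini-Hochberg adjusted p of 0.05. Slides pair the arrays, since arrays of 1 slide deviated together from their group means. The r was 0.177 to 0.486 on the HK2 01 and RPTEC 02 slides and 0.540 to 0.792 on the others. With 2 arrays per group the deviations mirror each other, so that both slides of a pair give the same r. The code was tested on simulated data. Figures were drawn with matplotlib 3.10.9.

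Slides, gene lists and the rule for named genes (the largest changes with and without a measured level in both groups, key and leading members of each list, and the largest differences between slide pairs) were chosen with earlier results of these data known. Alternatives were the normalization, background correction, floor, probe filters, arrays entering the fit, the block, 1 effect over 4 slides, a t-test and leaving out each array. The number of arrays limits the precision. A few genes are not reported here.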

Additional observations from a re-analysis of the deposited data

Results flagged for a closer look

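The test of the difference between the slides HK2 01 and RPTEC 02 and the slides HK2 02 and RPTEC 01 passed for 1554 genes. The genes with the largest differences of log2 fold change (the first pair minus the second) that were measured on all 8 arrays were PI3 (8.50), LTB (8.24), SERPINA3 (7.31), IGFBP3 (6.40) and IL4I1 (6.27) in one direction. In the other they were CADM1 (-5.76), ABAT (-3.95), DIPK1B (-3.79), RASL11B (-3.71) and CGN (-3.68).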

How the results depend on the processing

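The counts of genes changed, higher and lower stayed within 1.5 times of 4408, 1805 and 2603 under the other normalizations, the floor of 5 signal units, the probe filters, outlier spots kept, and the fits on the 4 or the 8 arrays. Without the replicate block of the slide, 3637 genes passed, 1475 higher and 2162 lower, and 1122 differed between slide pairs. In the table of the authors 943 genes differed between slide pairs, against 1554. With 1 effect over the 4 slides 2002 genes passed, 758 higher and 1244 lower. In the methods' t-test, which the study names for its PCR and ELISA data, 4736 genes had an unadjusted p under 0.05, but 532 passed after Benjamini-Hochberg, 258 higher and 274 lower. Leaving out 1 array, where the lone array of its group is assumed to vary like the others, left 2564 to 2816 genes changed, 1072 to 1228 higher, 1408 to 1714 lower and 743 to 954 that differed, the fewest changed without the RPTEC 02 control. Over the settings other than the t-test, the single effect over 4 slides and the filter for all 4 arrays, 12 to 15 of 16 chemokines were called higher (median 2.40 to 5.47), 15 to 21 of 25 NF-κB genes, 18 to 20 of 25 acute-phase genes and 11 to 17 of 23 cholesterol genes. Under other normalizations the medians of the matrix and cell cycle lists, near 0, changed sign.

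The 2-fold counts and the list counts that moved by more are given with those results. Of 190 genes with printed values, 35 kept direction and call in every setting and 148 lost the call in at least 1 (119 in the t-test, 76 with 1 effect over the 4 slides and at most 23 in any other), and ABAT, CADM1, ABCA1, COL1A1, HAVCR1 and MYD88 changed direction under an alternative. With 1 effect over the 4 slides, ABAT had a log2 fold change of 1.36, CADM1 1.29, ABCA1 0.16, COL1A1 0.053 and HAVCR1 -0.41. ABCA1 lost its call with normexp (-0.56, adjusted p = 0.0533) and in the table of the authors (-0.42, adjusted p = 0.0748). Leaving out 1 array each, MYD88 ranged from -0.66 (without the RPTEC 02 control) to 0.21 (without the HK2 01 control), and HAVCR1 from -1.12 (without the RPTEC 02 IL-1β array) to 1.73 (without the HK2 01 IL-1β array). The cause was not tested. Levels under background or at saturation leave only bounds.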
